A study of Bos taurus with 8 samples.

Results

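bta-miR-122, bta-miR-192, bta-miR-194, bta-miR-148a, bta-miR-193a-3p, bta-miR-193b and bta-miR-378 are 7 microRNAs (miRNAs) known from liver or adipose tissue, chosen by name and looked for in exosomes from the blood plasma of cattle. Of the 7, 6 have an entry of their own among the 744 bovine miRNAs of the array used. The remaining one, bta-miR-378, has none, and was read through the entry of bta-miR-378b, whose probes the array design also assigns to it. The study followed 6 Japanese Shorthorn steers, aged 21 to 28 months and divided at random into a group of 3 kept in a free-stall barn on cut grass (housed) and a group of 3 on pasture (grazing). Blood was taken from the same animals at 0, 1, 2 and 4 months (mo), exosomes were pelleted by ultracentrifugation, and RNA from the 3 steers of a group was pooled for each month. Each pool was read on 1 array, so there are 8 arrays and no replicate.

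MicroRNAs are short RNAs that guide a protein complex to messenger RNAs and reduce their output, and some of them leave cells inside vesicles such as exosomes. miR-122 is the miRNA most typical of hepatocytes, and miR-192 and miR-194, which are made from shared precursor transcripts, are known from liver, gut and kidney. miR-148a, miR-193a, miR-193b and miR-378 are found in liver, fat and other tissues and are known for roles in lipid metabolism or in the formation of fat cells.

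The deposited sample labels and the study's own list of array values give the feeding groups opposite names. For every array, all of its detected miRNAs lay within 1% of 1 column of that list, and at most 12 lay within 1% of the next best column. The columns so matched by the housed-label arrays are headed G, which the list's legend gives as grazing cattle. The other columns are headed A, where the legend has H, and are taken here to be the housed cattle. Arrays are therefore called here by their deposited label, housed-label or grazing-label. The study's text also goes against the labels: the shares it gives for miR-126-3p and miR-451 in housed cattle at the start are those of the grazing-label array of 0 mo here (2.44% and 1.41%), and not of the housed-label array (3.86% and 1.52%). A difference between the labels turns its direction if the study's list and text are right, whereas a change over months does not.

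The housed-label array of 0 mo was the brightest of the 8. The summed signal of the detected miRNAs, in the scanner's brightness units, reached 157696 there, followed by 84288 (1 mo), 62438 (2 mo) and 90951 (4 mo) under the same label. Under the grazing label the sums from 0 to 4 mo were 57316, 45507, 63558 and 51625. Of the 744 miRNAs, 226, 185, 166 and 182 were detected on the housed-label arrays, in the order of the months, and 167, 149, 163 and 160 on the grazing-label arrays. All 8 arrays lay on 1 slide with 1 column for each label and 1 row for each month, so position on the slide cannot be told apart from group or month.

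Of the 6 members with an entry, 3 were detected on all 8 arrays, 2 on 5 arrays and 1 on none. The entry shared by miR-378 and miR-378b was also detected on all 8. With the stricter rule that most spots of a miRNA be well above background, miR-148a alone of the 7 entries was detected on all 8, and miR-122 and miR-192 on 0. Detection is the scanner software's flag for a miRNA. On every array this flag equalled, for 744 of 744 miRNAs, the rule that at least 1 of the miRNA's probes was brighter than 3 times its own error estimate. That estimate comes from the spots of 1 array and covers no difference between animals. The housed-label arrays each had 5 of the 6 members detected, and the grazing-label arrays had 4, 3, 4 and 3 at 0, 1, 2 and 4 mo.

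Together these miRNAs gave a small part of the signal. The detected entries, the shared one included, summed to 0.183%, 0.250%, 0.207% and 0.251% of the signal of all detected miRNAs on the housed-label arrays at 0, 1, 2 and 4 mo. On the grazing-label arrays the sums were 0.121%, 0.134%, 0.212% and 0.128%. These shares are of brightness and not of molecules, because probes differ in how well they bind, and for that reason no member's level is set against another's.

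**Figure D1:**
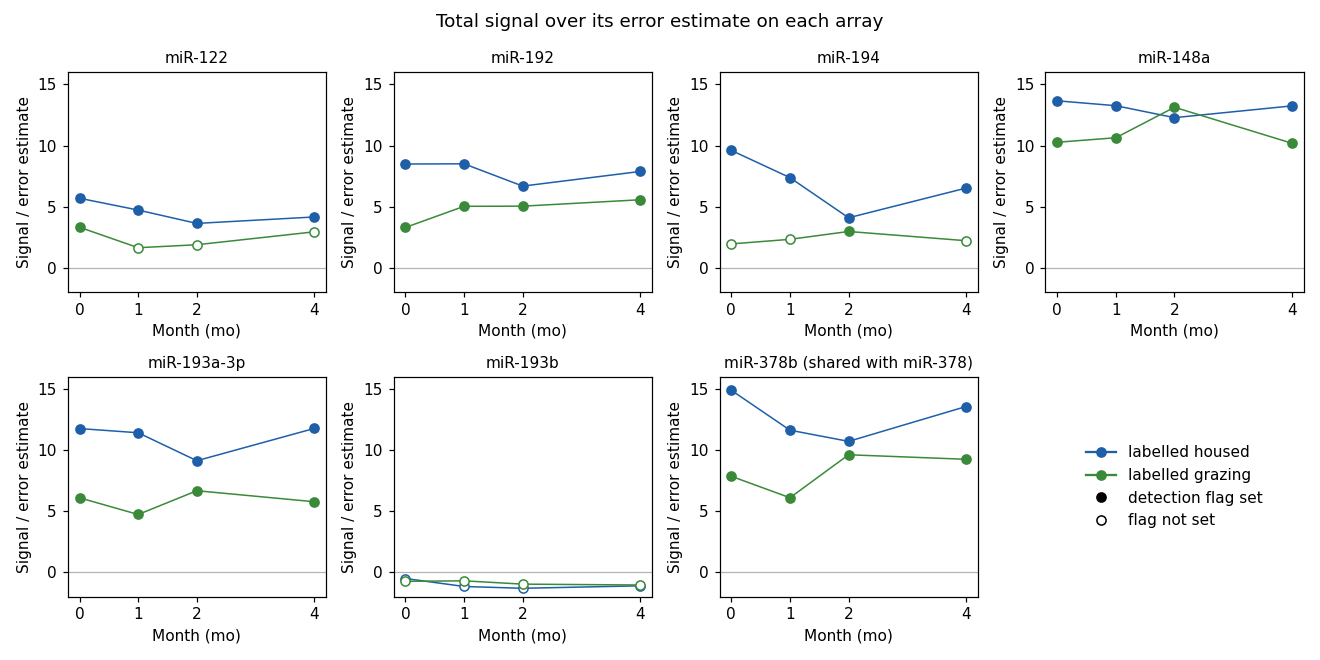
Total signal of each entry divided by its error estimate (no unit) against month, for arrays labelled housed (blue) and grazing (green), with 1 array per point. Filled points carry the detection flag and open points do not, and miR-193b lies below 0 on all 8 arrays.

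miR-122 was detected on the 4 arrays labelled housed and on the grazing-label array of 0 mo. Its signal was 5.69, 4.72, 3.63 and 4.15 times its error on the housed-label arrays at 0, 1, 2 and 4 mo. Under the grazing label it was 3.31, 1.64, 1.88 and 2.94 times its error, and the last 3 did not carry the flag. The hepatocyte miRNA thus lay near the limit of detection in these pools.

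As a share of the detected signal, miR-122 made up 0.00747%, 0.0121%, 0.0120% and 0.00955% on the housed-label arrays. Under the grazing label it was 0.0117% at 0 mo, where it was detected, and the undetected signals would come to 0.00712%, 0.00639% and 0.0109%. Among the 5 arrays on which it was detected, the housed-label array of 0 mo had the lowest share. After scaling to the array's 90th percentile, its signal was 0.108, 0.122, 0.148 and 0.105 under the housed label, and 0.165 at 0 mo under the grazing label. The undetected signals of the later grazing-label arrays came to 0.104, 0.0724 and 0.165 on that scale. They lay below the housed-label value at 1 and 2 mo and above it at 4 mo, and no fold is drawn from them. The course of miR-122 was not tested.

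The detection of miR-122 rested on 1 of its 2 probes, while its signal is the sum of both. The probe of 19 bases was above 3 times its error on 5 arrays and the probe of 18 bases on none, although the latter gave 3.26 of the signal of 11.8 on the housed-label array of 0 mo. The longer probe is shown because the detection of miR-122 turns on it, in lower case throughout.
miR-122 probe: caaacaccattgtcacact

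miR-192 was detected on all 8 arrays, with a signal of 8.49, 8.50, 6.68 and 7.88 times its error on the housed-label arrays at 0, 1, 2 and 4 mo. On the grazing-label arrays its signal was 3.30, 5.03, 5.04 and 5.56 times its error. Its share of the detected signal was 0.00900%, 0.0185%, 0.0172% and 0.0153% on the housed-label arrays, and 0.00821%, 0.0167%, 0.0130% and 0.0155% on the grazing-label arrays. In both labels the 0 mo array had the lowest share of miR-192, and the values of the labels overlap.

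On the scale used for tests, the log2 of the signal over the 90th percentile of its array, miR-192 was at −2.94, −2.42, −2.24 and −2.57 on the housed-label arrays. In the grazing-label pools it was at −3.11, −2.04, −2.77 and −2.10. Its change from 0 mo was therefore positive on 6 of 6 later arrays, from 0.35 (error estimate 0.52) at 2 mo labelled grazing to 1.08 (error estimate 0.52) at 1 mo labelled grazing. Before scaling, its signal lay below that of 0 mo on 2 of these arrays, those of 2 and 4 mo labelled housed. The scaled signal of miR-192 at 0 mo labelled grazing was 0.116, just above 0.114, the floor to which lower values were raised. All changes labelled grazing start from that value. The mean change over both labels was 0.67 (SE 0.21), with an adjusted p of 0.0884 in limma, so it did not pass the test at 0.05, which 6.99% of the 143 miRNAs detected on all 8 arrays passed. The estimate was above 0 under all 14 alternatives but was 0.044 under normexp (adjusted p = 0.786) and 0.33 without scaling (adjusted p = 0.946). It passed with quantile normalization (0.84, adjusted p = 0.0402) and with the summed signal (0.89, adjusted p = 0.0406). Under normexp the floor for low values raised those of 38 of the 143 miRNAs, beside 5 in the main setting. The label difference of miR-192 was 0.0876 there both in mean change and at the later months. Its 0 mo values were thus equal, as values raised to a floor are, and 0.044 cannot be read as the size of its change.

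The relative miR-215, which shares with miR-192 its seed, the stretch by which a miRNA pairs with its targets, rose from 0 mo. Its log2 scaled signal was −0.48, 0.24, 0.36 and 0.10 on the housed-label arrays at 0, 1, 2 and 4 mo. Under the grazing label it was −0.97, 0.53, −0.06 and 0.58. All 6 later arrays lay above both 0 mo arrays. The mean change was 1.02 (SE 0.22, limma, adjusted p = 0.0305), and miR-215 was the 1 miRNA called higher, beside 9 called lower, among the 143. With the 90th percentile over the 143 the calls were 1 higher and 0 lower, and with the summed signal 2 higher and 0 lower. The call of miR-215 was lost without scaling (0.68, adjusted p = 0.43), with the deposited series table (1.21, adjusted p = 0.0568), without the 1 mo arrays (0.97, adjusted p = 0.145) and without the 2 mo arrays (1.09, adjusted p = 0.0958). Its direction was the same under all 14 alternatives, and the adjusted p ranged from 0.00459 to 0.43.

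Among the 143 miRNAs, miR-215 had the course most like that of miR-192, with a Pearson r of 0.96 over the 8 arrays. These arrays share their animals across months, so r is a description. The next were miR-30f with 0.76 and miR-365-3p with 0.75. The probes of miR-192 and miR-215 have 14 bases in common. Binding of either RNA to the other's probe was not tested, so the courses of the pair cannot be taken as separate readings. The longest probes are printed with the longest run they share in capitals.
miR-192 probe: ctggCTGTCAATTCATAG
miR-215 probe: tgtCTGTCAATTCATAGgt

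Detection of miR-192 also came from its longest probe, of 18 bases, which was above 3 times its error on all 8 arrays. Of its shorter probes, that of 17 bases was so on 3 arrays and those of 15 and 16 bases on none.

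miR-194, which shares precursors with miR-192 and with miR-215, was detected on the 4 arrays labelled housed and on the grazing-label array of 2 mo. Its signal was 9.60, 7.37, 4.09 and 6.51 times its error on the housed-label arrays at 0, 1, 2 and 4 mo. On the grazing-label arrays it was 1.95, 2.32, 2.97 and 2.21 times its error. All 4 ratios of the housed-label arrays lay above those of the grazing-label arrays. The summed signal of all detected miRNAs was also lower under the grazing label at 0, 1 and 4 mo, but not at 2 mo.

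The share of miR-194 was 0.0165%, 0.0210%, 0.0137% and 0.0164% of the detected signal on the housed-label arrays, and 0.0102% at 2 mo labelled grazing. After scaling to the array's 90th percentile, its signal was 0.239, 0.213, 0.169 and 0.181 under the housed label. The undetected grazing-label signals at 0, 1 and 4 mo came to 0.0948, 0.148 and 0.123 on that scale, each below the housed-label value of the month, and no fold is drawn from them. At 2 mo, where both arrays detected it, the signal was 0.116 under the grazing label, and the log2 difference between the labels was 0.902 times its error estimate. Against 0 mo, the housed-label arrays gave log2 changes of miR-194 of −0.17 (error estimate 0.25), −0.50 (0.38) and −0.40 (0.27) in the order of the months. On this scale they were opposite in sign to those of miR-192 on the same arrays. Before scaling, the signals of both lay below those of 0 mo at 2 and 4 mo labelled housed. By share, both lay above 0 mo at 1 mo labelled housed. The difference between the courses of miR-192 and miR-194 was not tested.

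The design places the longest probe of miR-192 at chr29:43731685-43731701 and that of miR-194 at chr29:43731480-43731495 of build UMD_3.1, with 189 bases between them. A second position of miR-194, chr16:24306050-24306065, lies 280 bases from that of miR-215 at chr16:24305752-24305769. In the ARS-UCD2.0 annotation, used here for names alone, MIR192 and MIR194-2 are neighbours within the span of EHD1, and MIR194-1 and MIR215 are neighbours within the span of IARS2. One probe set thus reads miR-194 from both places, and their parts in its signal cannot be told apart.

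miR-148a was detected on all 8 arrays with a signal of at least 10.2 times its error. Its signal was 109, 84.0, 51.0 and 83.1 on the housed-label arrays at 0, 1, 2 and 4 mo, and 29.6, 32.4, 80.9 and 27.8 on the grazing-label arrays. The grazing-label array of 2 mo stood apart from the other arrays of its label, and its 90th percentile over all miRNAs was also higher, at 56.1 against 40.7, 31.2 and 34.2 at 0, 1 and 4 mo. The share of miR-148a there was 0.127%, against 0.0517%, 0.0713% and 0.0538% at 0, 1 and 4 mo. On the housed-label arrays the share was 0.0692%, 0.0997%, 0.0816% and 0.0914%.

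After scaling, the log2 signal of miR-148a was 0.00, 0.01, 0.01 and 0.01 on the housed-label arrays. It ranked 75, 75, 74 and 75 of 744 there, which is the place of the 90th percentile itself, so the scaling sets this flat course. In the grazing-label pools it was −0.46, 0.05, 0.53 and −0.30. From 0 mo, the grazing-label change was 0.51 at 1 mo, or 2.62 times its error estimate, 0.99 at 2 mo, or 5.52 times, and 0.16 at 4 mo, or 0.788 times. No array repeats the 2 mo value, so it cannot be set against a spread between pools. The mean change over both labels was 0.28 (SE 0.22) and did not pass the test (limma, adjusted p = 0.466). The study's qRT-PCR has miR-148a lower in grazing cattle at 1 mo, where the array difference, labelled grazing minus labelled housed, was 0.04, or 0.237 times its error estimate. The measures are unlike, since the qRT-PCR was scaled to let-7g and the array value to the 90th percentile. Over the later months the array difference was 0.08 (limma, adjusted p = 0.803), and 0.41 with scaling to let-7g (adjusted p = 0.146).

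The courses most like that of miR-148a were those of miR-19a (r = 0.98), miR-148b (r = 0.98) and miR-339a (r = 0.93) over the 8 arrays. miR-148b, which shares its seed with miR-148a, was at −1.32, −1.20, −1.25 and −1.30 on the log2 scale on the housed-label arrays. Under the grazing label it was at −1.67, −1.26, −0.79 and −1.65, again with 2 mo above the other months. The probes of the pair share 12 bases, marked in capitals, and binding across them was not tested. miR-152, another RNA with this seed, has a probe with 9 bases in common with that of miR-148a and was detected on none of the arrays.
miR-148a probe: ACAAAGTTCTGTagtgcact
miR-148b probe: ACAAAGTTCTGTgatgcac

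miR-193a-3p was detected on all 8 arrays and was lower on the grazing-label arrays. Its signal was 65.7, 54.4, 26.8 and 62.9 on the housed-label arrays at 0, 1, 2 and 4 mo, and 13.7, 10.1, 17.1 and 12.3 on the grazing-label arrays. Its share was 0.0417%, 0.0646%, 0.0429% and 0.0692% of the detected signal on the housed-label arrays, against 0.0240%, 0.0222%, 0.0268% and 0.0238% on the grazing-label arrays. The labels do not overlap in either measure. Under the normexp background correction the shares overlap, and at 0 mo the housed-label share (0.0630%) lies below the grazing-label one (0.0801%). That correction adds an offset of 50 to every signal. The undetected miR-193b has the same order there at 0 mo (0.0229% and 0.0563%), so this overlap cannot be read as one of miR-193a-3p.

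On the log2 scale miR-193a-3p was at −0.73, −0.61, −0.92 and −0.39 on the housed-label arrays and at −1.57, −1.63, −1.72 and −1.48 on the grazing-label arrays. The difference, labelled grazing minus labelled housed, was, in the order of the months, −0.84, −1.01, −0.80 and −1.09. It was between 2.98 and 3.90 times its error estimate. The difference was thus already measured at 0 mo, the start of the feeding trial. Over the 3 later months the difference was −0.97 (SE 0.20, limma with month as a block, adjusted p = 0.00591), a 1.95-fold lower level, with the same sign in 3 of 3 months. In that fit 11.2% of the 143 miRNAs were called. The 3 later arrays of a label hold repeat samples of the same 3 steers, so this p compares these pools over time and not cattle of the feeding groups.

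The call of miR-193a-3p was lost under 5 of 14 alternatives, while its direction was the same under all 14. Without the 1 mo arrays the difference was −0.94 (adjusted p = 0.211), without the 2 mo arrays −1.05 (adjusted p = 0.0734) and without the 4 mo arrays −0.91 (adjusted p = 0.345). With quantile normalization it was −1.02 (adjusted p = 0.0549), and with the normexp background correction −0.23 (adjusted p = 0.137). Where the call was kept, the difference lay between −1.81 (no scaling) and −0.64 (scaling to let-7g). The adjusted p ranged from 0.000433 to 0.345 over the alternatives.

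The miRNAs with courses most like that of miR-193a-3p over the 8 arrays were let-7e (r = 0.96), miR-10b (r = 0.96) and miR-16a (r = 0.95). With 4 arrays of each label on 2 levels, values like these can follow from a difference between the labels alone. The change of miR-193a-3p from 0 mo was at most 0.34 in size, at 4 mo labelled housed, and at most 1.95 times its error estimate on any array. Its mean change over both labels was 0.02 (SE 0.17, limma, adjusted p = 0.938).

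miR-193b, the paralog of miR-193a-3p, gave no signal. Its total signal was below 0 on all 8 arrays, from −1.31 to −0.51 times its error, and neither of its 2 probes passed 3 times its error on any array. The longest probes of the pair share 10 bases, in capitals, with different bases on both sides.
miR-193a-3p probe: actGGGACTTTGTaggc
miR-193b probe: aaagcGGGACTTTGTg

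The other arm of the precursor, miR-193a-5p, and the entry named miR-193a were not detected on any array. In ARS-UCD2.0, MIR193A is a neighbour of MIR365-2 on chromosome 19, and MIR193B of MIR365-1 on chromosome 25. The array's miR-365-3p probes are placed on both chromosomes, and miR-365-3p was detected on all 8 arrays. Its log2 scaled signal was −1.42, −0.99, −1.16 and −0.99 on the housed-label arrays at 0, 1, 2 and 4 mo, and −1.43, −0.99, −1.04 and −0.99 on the grazing-label arrays. Its difference between the labels over the later months was 0.04 (SE 0.20) and did not pass the test (limma, adjusted p = 0.883). Whether it differed from that of miR-193a-3p was not tested.

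miR-378 has no probe under its own name. The 3 probes of miR-378b, with 40 spots, are also assigned to it, so the signals of these RNAs cannot be told apart. The design places the longest of the 3 on chromosomes 4, 7 and 15. In ARS-UCD2.0, MIR378-1 lies on chromosome 7 within the span of PPARGC1B, which encodes a coactivator of mitochondrial gene expression. MIR378-2 lies on chromosome 4 within that of CALCR, the calcitonin receptor gene, and MIR378B on chromosome 15.

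The shared entry was detected on all 8 arrays, with a signal of 61.9, 28.9, 24.5 and 45.1 on the housed-label arrays at 0, 1, 2 and 4 mo. Under the grazing label the signal was 14.5 at 0 mo, lowest at 1 mo, 21.9 at 2 mo and 18.0 at 4 mo. Its share of the detected signal was 0.0393%, 0.0343%, 0.0393% and 0.0496% on the housed-label arrays, and 0.0253%, 0.0235%, 0.0345% and 0.0349% on the grazing-label arrays. The shares of the labels overlap, with 1 mo labelled housed below 2 and 4 mo labelled grazing. On the log2 scale the entry was at −0.82, −1.52, −1.05 and −0.87 on the housed-label arrays and at −1.49, −1.54, −1.36 and −0.93 on the grazing-label arrays.

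The largest change of the shared entry from 0 mo was −0.71 at 1 mo labelled housed, 4.51 times its error estimate. Next was 0.56 at 4 mo labelled grazing, 2.33 times its error estimate. The mean change over both labels was −0.06 (SE 0.23) and did not pass the test (limma, adjusted p = 0.871). Its course was like no other as closely as those of the other members: the highest r over the 8 arrays were 0.77 with miR-15a, 0.62 with miR-29a and 0.55 with miR-25.

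The probe of miR-378c shares 14 bases with that of miR-378b, in capitals below. miR-378c was detected on 5 arrays, the 4 labelled housed and the grazing-label array of 4 mo, and binding of it to the shared entry's probes was not tested. The listed relative miR-378d has no entry.
miR-378b probe: gcCTTCTGACTCCAAG
miR-378c probe: aCTTCTGACTCCAAGtc

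**Figure D2:**
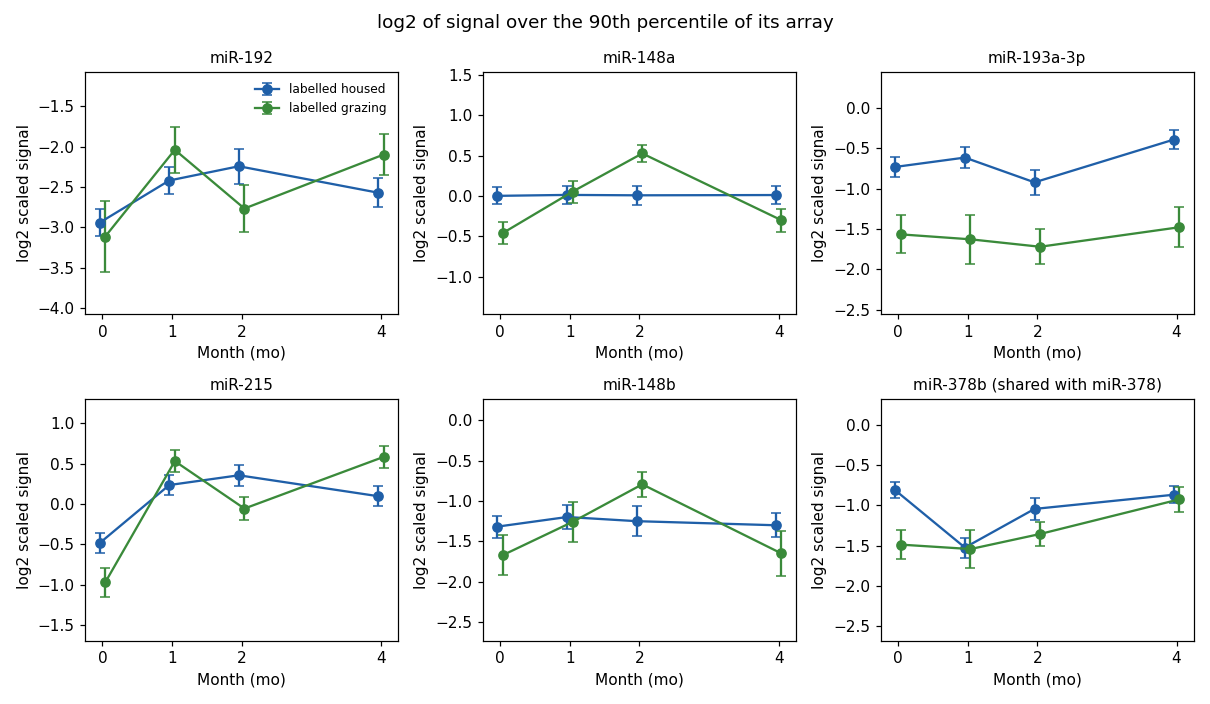
log2 of signal over the 90th percentile of its array (log2 units) against month for the 4 entries detected on all 8 arrays and for the relatives miR-215 and miR-148b, on arrays labelled housed (blue) and grazing (green). Each point is 1 array, bars are the scanner software's error estimate, points are offset slightly, and each panel spans 3 log2 units; miR-193a-3p is lower on the grazing-label arrays at all 4 times.

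Whether the feeding groups differed in how these miRNAs changed from 0 mo was asked of the 4 entries detected on all 8 arrays, in a fit over all 143 such miRNAs. None of the 4 passed the test for a different mean change, where 1.4% of the 143 were called (2 miRNAs, and 0 under 13 of 14 alternatives). At an unadjusted p under 0.05 the limma counts were 0 of the 4 and 9 of the 143. The difference in mean change, labelled grazing minus labelled housed, was 0.28 (SE 0.45) for miR-192, 0.54 (SE 0.42) for miR-148a, −0.13 (SE 0.39) for miR-193a-3p and 0.54 (SE 0.40) for the shared entry of miR-378. The median over the 4 was 0.41, beside 0.15 over the 143. The 2 called miRNAs were miR-2406 and miR-2412, named here after their values were seen.

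Over the later months alone, 1 of the 4 entries differed between the labels, miR-193a-3p, where 11.2% of the 143 did (16 miRNAs, 9 higher and 7 lower labelled grazing). The balance of directions turns with the scaling, with 42 higher and 3 lower for let-7g, and 7 higher and 22 lower for the 90th percentile over the 143. With 4 entries this count says nothing of the members as a group. For the other entries the difference was 0.11 (SE 0.22) for miR-192, 0.08 (SE 0.21) for miR-148a and −0.13 (SE 0.20) for the shared entry, each without passing the test. The median over the 4 was −0.02, beside −0.01 over the 143.

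Over both labels, 0 of the 4 entries changed between 0 mo and the later months, where 6.99% of the 143 did (10 miRNAs). At an unadjusted p under 0.05 the limma counts were 1 of the 4, miR-192, and 34 of the 143. The median change over the 4 was 0.15, beside 0.09 over the 143. Of the 3 relatives detected on all 8 arrays besides the shared entry, miR-215 was called and miR-148b and miR-365-3p were not. Among the 4 entries the highest r of a pair was 0.48, between miR-193a-3p and the shared entry. The r of miR-192 over the 8 arrays was 0.05 with miR-148a, −0.05 with miR-193a-3p and −0.01 with the shared entry.

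Other miRNAs known from liver and lipid metabolism were taken as a list of 18, all with an entry. Of these, 12 were detected on at least 1 array and 6 on all 8. The 6 are miR-27a-3p, miR-27b, miR-101, miR-103, miR-107 and miR-30c, and 0 of them were called in any of the 3 limma fits. At an unadjusted p under 0.05 there were 0 in mean change, 3 in the difference at later months, where 36.4% of the 143 (52 miRNAs) had such a p, and 0 in the change from 0 mo. The difference at later months was below 0 for 6 of 6 (5 with quantile normalization or without the 4 mo arrays, and 3 with scaling to let-7g), with a median of −0.36, beside −0.01 over the 143. miR-27b made up between 0.302% and 0.830% of the detected signal. miR-210 was detected on 1 array, and miR-33b, miR-143, miR-196a, miR-455-3p, miR-455-5p and miR-483 on none. miR-33a, which lies in the gene of a regulator of sterol synthesis, was detected on 3 arrays.

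Of the hepatocyte miRNAs miR-122, miR-192, miR-194 and miR-885, all 4 were detected on the housed-label array of 0 mo and 3 on each later array of that label. On the grazing-label arrays 3, 1, 3 and 2 were detected at 0, 1, 2 and 4 mo. Their detected shares summed to 0.0407%, 0.0516%, 0.0429% and 0.0412% on the housed-label arrays and to 0.0435%, 0.0167%, 0.0354% and 0.0294% on the grazing-label arrays. Signals without the flag are left out of these sums. At 1 mo labelled grazing the sum is miR-192 alone, and the undetected miR-122 and miR-194 would come to 0.00712% and 0.0102%. Of all 744 miRNAs, 149 were detected on that array, beside 185 at 1 mo labelled housed.

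Markers of blood cells were detected on every array. The red-cell list (5 miRNAs, 4 detected on all 8 arrays, miR-451 the brightest and miR-363 detected on none) summed to 1.89%, 3.57%, 3.34% and 4.45% of the detected signal on the housed-label arrays. In the grazing-label pools it summed to 1.77%, 1.94%, 1.49% and 1.64%. Of its 4 tested miRNAs, 2 were called lower under the grazing label over the later months, miR-144 and miR-451, the direction of miR-193a-3p, where 4.9% of the 143 were called lower. The call of miR-144 (−1.38) was lost under 3 of 14 alternatives, among them without the 2 mo arrays (−1.20, adjusted p = 0.0734) and without the 4 mo arrays (−1.30, adjusted p = 0.345). That of miR-451 (−0.92) was lost under 6, among them without the 1 mo (−1.19, adjusted p = 0.1), 2 mo (−0.73, adjusted p = 0.126) or 4 mo arrays (−0.84, adjusted p = 0.345). The study's text has both increasing in grazing but not in housed cattle, and miR-451 higher in grazing cattle at 2 mo by qRT-PCR, against the direction under the deposited labels. For miR-144 the study's qRT-PCR found no significant difference between the groups. The same qRT-PCR has miR-486, of the same list, lower in grazing cattle at 1 mo. Its array difference over the later months was −0.33 (SE 0.23) and did not pass the test (limma, adjusted p = 0.326). The study scaled its qRT-PCR to let-7g, which itself lay at −0.33 (SE 0.20) in this fit. The differences of miR-486 and let-7g were thus about equal, and the size of that of miR-486 depends on the scaling. The red-cell sums also lay lower under the grazing label at these months, while at 0 mo they lay at 1.89% and 1.77% where miR-193a-3p differed by −0.84 on the log2 scale. Their part in the difference of miR-193a-3p was not tested.

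The list for white cells and platelets (6 miRNAs, 5 detected on all 8 arrays, miR-142-3p on none) summed to 6.20%, 9.08%, 6.41% and 8.03% on the housed-label arrays and to 4.24%, 5.90%, 7.21% and 4.82% on the grazing-label arrays. The brightest was miR-126-3p on 7 arrays and miR-223 on the grazing-label array of 2 mo, where miR-148a was also highest of its label. miR-126-3p alone made up between 2.44% and 5.72% of the detected signal. The study calls miR-126-5p, the other arm of its precursor, endothelial-specific, so the sum cannot be read as that of blood cells alone. The part of white cells and platelets in the value of miR-148a was not tested. Of the 5 tested at the later months, miR-150 was called, higher under the grazing label (0.83, SE 0.20, limma, adjusted p = 0.0144). Of the 143, 6.29% were called higher. In the same fit 3 of the 5 had an unadjusted p under 0.05, where 36.4% of the 143 did. Of these 3, miR-150 and miR-142-5p were higher and miR-126-3p lower. The study's qRT-PCR has miR-150 lower in grazing cattle at 2 and 4 mo, against the direction under the deposited labels. The call of miR-150 was lost under 7 of 14 alternatives. It was −0.011 with no scaling, and among the others lost were those without the 1 mo (0.87, adjusted p = 0.211), 2 mo (0.76, adjusted p = 0.0734) or 4 mo arrays (0.88, adjusted p = 0.345). Of the markers of other tissues, 1 of 7 for muscle was detected, miR-133b on 2 arrays, 0 of 7 for brain, and 1 of 9 for pancreas and epithelium, miR-375 on the 4 arrays labelled housed. The study also describes miR-486 as enriched in muscle. It is listed here under red cells and was detected on all 8 arrays.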

How the data were processed

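The authors hybridized each pool to 1 array of a custom Agilent design (miRBase release 19), and the deposited scanner output (Feature Extraction 10.7.3.1) holds intensity values that are background-subtracted and not normalized between arrays. The deposited series table holds a ratio, the signal over 1 factor per array, used here as an alternative alone. Total signals were scaled to the 90th percentile of the 744 miRNAs on the array, the percentile that the methods name. Scaled values below 0.114 were raised to that floor, which is the lowest detected scaled signal of the array where this is highest, and log2 was taken. A share is the percentage of the array's detected signal that a miRNA makes up. The 143 miRNAs detected on all 8 arrays were fitted with limma 3.58.1 in R 4.3.3, with Benjamini-Hochberg adjustment at 0.05. The fits of mean change and of the later months had 2 residual degrees of freedom, and that of the change from 0 mo had 5. They were tested on simulated data. Named miRNAs are the members, their relatives by seed, precursor or cluster, the list of liver and lipid miRNAs, and the 3 most alike by Pearson r. Markers of blood cells and other tissues, and the 2 miRNAs called for a different mean change, are named as well. Members and lists were chosen with earlier results of these data known. The alternatives were other scalings, signals, filters, detection rules and variance models, and each later month left out.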

Additional observations from a re-analysis of the deposited data

How the results depend on the processing

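Each test was repeated under 14 alternatives. The 4 entries detected on all 8 arrays had 0 calls for a different mean change under all 14. miR-193a-3p was the 1 member called at the later months under 9 of 14, and the count fell to 0 under normexp, quantile normalization and without the 1, 2 or 4 mo arrays. For the change from 0 mo, miR-192 was called (1 member) with quantile normalization (0.84, adjusted p = 0.0402) and with scaling to the summed signal (0.89, adjusted p = 0.0406), and 0 members under the other 12, with the lowest estimate, 0.044, under normexp. Its adjusted p ranged from 0.0402 to 0.946. The cause was not tested, apart from the months left out, which leave fewer arrays. With most spots required to be well above background, 1 of the 7 entries was detected on all 8 arrays, miR-148a, and with the other rules 4. Under that rule miR-192 went from 8 arrays to 0, miR-122 from 5 to 0, miR-194 from 5 to 2, miR-193a-3p from 8 to 4 and the shared entry of miR-378 from 8 to 5. With the total signal required to pass 3 times its error, miR-194 went from 5 to 4. Shares lay within the error estimate in 112 of 168 cases. Under normexp the median share of miR-122 was 0.0644%, beside 0.0102%, and that of miR-193b 0.0525%, beside −0.00288%, since the offset of 50 adds to signals near 0. Signals of a few times their error limit what can be read of miR-122, miR-192 and miR-194.

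Of the 2 miRNAs called for a different mean change, the count was 0 under 13 of 14 alternatives and 2 with an intensity trend. At the later months the count of 16 (9 higher and 7 lower) was also 16 under normexp (2 higher and 14 lower) and became 2 with the 75th percentile, 29 with the 90th percentile over the 143, 8 with processed spot signals, 3 with no scaling, 0 with quantile normalization, 8 with the series table, 45 with let-7g scaling, 3 with the summed signal, 1, 2 and 0 without the 1, 2 and 4 mo arrays, 8 with detection on at least 6 arrays and 32 with an intensity trend. From 0 mo the count of 10 became 19 with the 75th percentile, 1 with the 90th percentile over the 143, 4 with no scaling, 0 with the series table, 2 with the summed signal, and 0, 0 and 20 without the 1, 2 and 4 mo arrays.

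The scalings moved the median estimate of all 143. For the mean change the shift was −0.15 (75th percentile), −0.43 (90th percentile over the 143), −0.32 (summed signal), −0.11 (quantile), 0.11 (let-7g) and 0.58 (none). At the later months it was −0.11 (90th percentile over the 143), −0.28 (summed signal), 0.34 (let-7g) and −0.84 (none). From 0 mo it was −0.12 (75th percentile), 0.12 (90th percentile over the 143), 0.22 (summed signal), −0.13 (let-7g) and −0.34 (none).

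Among the 4 entries and miR-215, estimates that changed sign were all of comparisons that did not pass the test, before or after. That of miR-150, called at the later months (0.83), was −0.011 with no scaling. In mean change, miR-192 was at −0.081 with the 90th percentile over the 143 and −0.042 with the summed signal, and miR-193a-3p at 0.45 with no scaling and 0.12 with quantile normalization. At the later months, miR-192 was at −0.0040 with the 90th percentile over the 143, −0.74 with no scaling, −0.12 with quantile normalization, −0.017 with the series table, −0.17 with the summed signal, −0.026 without the 1 mo arrays and −0.072 without the 4 mo arrays. miR-148a was at −0.031 with the 90th percentile over the 143, −0.76 with no scaling, −0.20 with the summed signal and −0.14 without the 2 mo arrays. The shared entry of miR-378 was at 0.077 under normexp and 0.20 with let-7g, and miR-215 at −0.72 with no scaling, −0.16 with the summed signal and −0.058 without the 4 mo arrays. From 0 mo, miR-148a was at −0.063 with no scaling. miR-193a-3p was at −0.094 with the 75th percentile, −0.32 with no scaling, −0.10 with let-7g and −0.072 without the 4 mo arrays. The shared entry was at 0.056 with the 90th percentile over the 143, 0.025 under normexp, 0.30 with quantile normalization, 0.16 with the summed signal and 0.10 without the 1 mo arrays.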

Other observations

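Each array is a pool, so no value here shows the spread between steers, and the number of arrays limits the precision of every comparison. The longest probes of the 7 entries had a median GC content of 50% (40% to 56.2%), beside 52.9% over the 143 miRNAs detected on all 8 arrays and 50% over all 744. Mature sequences are not used here, and the probes are shown instead. Exosomes and other plasma particles that pellet with them cannot be told apart, and the tissue a miRNA came from was not measured. On the arrays labelled grazing, the signal of miR-122 was under 3 times its error on 3 arrays and that of miR-194 on 4, so their courses there cannot be read.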
